A study of Mus musculus with 49 samples.

Results

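The dose trend after 1 week of arsenate was followed across the mice that drank arsenate, without the mice that drank plain water. Members were the 19 arrays labelled with 1 week and an arsenate dose above 0, of 49 arrays in the series. Each array held total RNA of the whole urinary bladder of 1 female C57Bl/J mouse, not pooled, killed at an age of 76 days. Arsenate was given in drinking water at 0.5 ppm (4 mice), 2 ppm (5 mice), 10 ppm (5 mice) or 50 ppm (5 mice). The doses were ranked 1 to 4, and the slope of log2(intensity + 16) over the ranks was fitted for every gene with limma, so a slope is a change in log2 units per dose step. 5 further 1-week mice that drank water only were not in the fit, and their levels are given for reference. The 12-week mice, 20 with arsenate at the same doses and aged 155 days, served as the second harvest. The labels also give each dose a leading number of its own (8, 11, 16 and 19 at 0.5, 2, 10 and 50 ppm), with no stated meaning, and it cannot be told apart from dose.

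Arsenate is the pentavalent form of inorganic arsenic. It is reduced and methylated in the body, largely in the liver, and its metabolites leave with the urine, so that the bladder lining is exposed to them. The bladder wall is made of a stratified urothelium over connective tissue with vessels and nerves and a coat of smooth muscle. Inorganic arsenic is known to cause cancer of the human bladder.

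The 8 genes used to check the tissue, the uroplakins Upk1a, Upk1b, Upk2 and Upk3a, the basal keratin Krt5 and the muscle genes Myh11, Actg2 and Des, lay between 13.0 and 15.62 log2 units in every one of the 19 arrays. The medians of all arrays in the series spanned 0.461 log2 units without the offset of 16. With the offset, the medians of the 19 arrays ran from 6.75 to 6.96. Among 6 technical measures per array none moved with dose rank by a permutation test (smallest unadjusted p = 0.0944 for the Gapdh 3' to 5' ratio, adjusted p = 0.553). The RNA integrity number averaged 9.25, 8.16, 8.73 and 9.38 from 0.5 to 50 ppm, and 3 of the 2 ppm arrays (replicates 3 to 5) were at 7.2. It was not given for 10 ppm replicates 1 and 2, so it was tested on 17 arrays. 1 array, 50 ppm replicate 2, stood apart, with a median correlation of 0.957 to the other arrays, against 0.970 to 0.978 for the rest. Intensities near the bottom of the scale (4 on this log2 scale) carry little information, and a group mean under 5 is named as near that floor.

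Of 14641 genes tested, 8 had a called slope, that is an adjusted p under 0.05 (0.0546% of genes). 3 rose with dose (0.0205%) and 5 fell (0.0342%). The falls were Cyp2d10, Fabp1, Fga, Crim1 and Dnajb14. The rises were Cd244a, Rnf214 and Ubr4. Before adjustment 1914 genes had p under 0.05, and the median slope over all genes was 0.00 with 51.7% of slopes positive. All 5 falling genes had group means in strict dose order, falling from 0.5 to 50 ppm, which 3.72% of all genes had. Of the 3 rising genes 1, Cd244a, had its means in strict rising order, which 4.6% of all genes had. The same values gave the called slopes, which favours such an order, so these counts are a description.

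3 of the 5 falling genes are known as genes of the liver. Cyp2d10 encodes a cytochrome P450 that oxidises drugs and other foreign compounds, Fabp1 the liver fatty acid binding protein, and Fga the alpha chain of fibrinogen, the clotting protein that hepatocytes secrete. Their promoters are shown because these 3 genes carried the steepest called slopes and are all known from hepatocytes, where HNF1 is a known activator of many genes. The windows run from 250 bases before to 50 bases after a RefSeq start (GRCm38.p6; the build behind the arrays is not given in the sources used here). Fabp1 lies at chr6:71199629-71199928 on the plus strand, Fga at chr3:83025903-83026202 on the plus strand and Cyp2d10 at chr15:82407145-82407444 on the minus strand. Capitals mark the half-site GTTAAT of the HNF1 motif on either strand, so that ATTAAC is the same half-site read on the other strand.
Fabp1: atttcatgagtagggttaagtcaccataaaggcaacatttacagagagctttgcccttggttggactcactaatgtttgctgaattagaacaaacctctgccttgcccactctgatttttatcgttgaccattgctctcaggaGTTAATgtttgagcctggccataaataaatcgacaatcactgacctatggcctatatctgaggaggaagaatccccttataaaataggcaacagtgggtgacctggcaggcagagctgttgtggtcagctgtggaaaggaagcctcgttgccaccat
Fga: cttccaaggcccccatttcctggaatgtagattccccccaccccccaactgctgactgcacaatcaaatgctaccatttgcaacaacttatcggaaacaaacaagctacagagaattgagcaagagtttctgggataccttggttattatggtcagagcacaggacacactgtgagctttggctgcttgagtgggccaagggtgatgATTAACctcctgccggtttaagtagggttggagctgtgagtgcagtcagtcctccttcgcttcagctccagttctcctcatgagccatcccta
Cyp2d10: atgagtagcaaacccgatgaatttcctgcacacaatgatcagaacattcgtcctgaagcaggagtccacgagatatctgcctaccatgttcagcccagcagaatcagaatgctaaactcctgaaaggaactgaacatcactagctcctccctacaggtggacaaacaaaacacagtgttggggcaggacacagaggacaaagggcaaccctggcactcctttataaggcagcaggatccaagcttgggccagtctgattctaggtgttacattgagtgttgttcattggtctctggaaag
The Fabp1 and Fga windows each held 1 half-site and the Cyp2d10 window held none of these letters. Over all 27025 mouse promoter windows of this length, 7.2% held the half-site, and 6 of the 18 windows of liver marker genes did (33.3%). A match describes the letters and is not evidence of binding.

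Cyp2d10 measured 7.25, 7.73, 6.25 and 6.59 log2 units at 0.5 ppm. At 2 ppm it measured 5.82, 6.17, 7.72, 6.47 and 6.21, at 10 ppm 5.17, 4.28, 5.88, 4.91 and 4.48, and at 50 ppm 4.38, 4.78, 4.19, 4.39 and 4.65. Every 50 ppm array lay below every 0.5 ppm and 2 ppm array, while 10 ppm and 50 ppm overlapped. The means at 10 ppm (4.94) and 50 ppm (4.48) were near the floor, so the size of the fall is a lower estimate. Its slope was -0.90 ± 0.12 (SE) log2 units per dose step (limma, adjusted p = 0.00233). Cyp2d10 was the 1 gene of the 8 that stayed called whichever single array was left out (adjusted p 0.000645 to 0.0163). Mouse Cyp2d genes are close copies of each other, so its probe set may also read related transcripts.

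Fabp1 measured 8.68, 10.24, 7.90 and 7.75 at 0.5 ppm. It measured 7.56, 7.31, 10.71, 8.65 and 8.36 at 2 ppm, 8.12, 5.73, 7.92, 7.17 and 7.12 at 10 ppm, and 5.55, 6.16, 5.51, 6.24 and 5.36 at 50 ppm. The values ranged more widely within the 3 lower doses than within 50 ppm, and the 50 ppm mice were lower than all 0.5 ppm and 2 ppm mice. The slope was -1.02 ± 0.18 (limma, adjusted p = 0.0301), and a second Fabp1 probe set had a slope of -0.35. Fga measured 8.20, 9.14, 7.26 and 7.11 at 0.5 ppm, then 6.83, 7.46, 9.75, 7.75 and 7.79 at 2 ppm. It measured 7.22, 6.33, 7.18, 7.08 and 6.78 at 10 ppm and 5.41, 5.98, 5.97, 6.06 and 5.04 at 50 ppm. All 5 Fga values at 50 ppm lay below all values at the lower doses. Its slope was -0.79 ± 0.14 (limma, adjusted p = 0.0301). Fabp1, Fga and Cyp2d10 were each highest in replicate 3 at 0.5 ppm and in replicate 3 at 2 ppm. At 10 ppm Cyp2d10 was again highest in replicate 3, and Fabp1 and Fga in replicate 1. The Fabp1 and Fga calls were lost without 0.5 ppm replicate 2 or 3, or without 50 ppm replicate 1, 3, 4 or 5, with adjusted p up to 0.145 for each, and with an offset of 64 in place of 16 (adjusted p = 0.0631 for both, limma).

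Crim1 and Dnajb14 are not liver genes by name. Crim1 encodes a membrane protein that binds bone morphogenetic proteins, and Dnajb14 a J-domain co-chaperone of the endoplasmic reticulum membrane. Crim1 measured 10.11, 9.28, 10.20 and 9.69 at 0.5 ppm, 9.34, 9.90, 9.62, 9.28 and 9.56 at 2 ppm, 9.06, 9.28, 9.60, 9.01 and 9.70 at 10 ppm, and 8.75, 9.37, 8.44, 8.28 and 8.38 at 50 ppm. 1 mouse at 50 ppm, replicate 2, lay within the range of the 0.5 ppm mice, and the other 4 were below it. The Crim1 slope was -0.38 ± 0.07 (limma, adjusted p = 0.0301), but its second probe set, which was dimmer, had a slope of 0.00. Dnajb14 measured 9.13, 8.59, 9.11 and 8.98 at 0.5 ppm, 8.78, 9.42, 8.97, 8.71 and 8.85 at 2 ppm, 8.79, 8.66, 8.68, 8.75 and 8.90 at 10 ppm, and 8.04, 8.15, 7.78, 8.20 and 7.49 at 50 ppm. The 3 lower doses overlapped, and all 50 ppm mice were below all of them. The Dnajb14 slope was -0.34 ± 0.06 (limma, adjusted p = 0.0301), against -0.02 in its second, dimmer probe set. Without the 50 ppm group the Dnajb14 slope was -0.10 ± 0.07. The Crim1 call was lost without any 1 of 0.5 ppm replicates 2 and 4 or 50 ppm replicates 1, 3, 4 and 5 (adjusted p up to 0.146). The Dnajb14 call was lost without any 1 of 0.5 ppm replicates 2, 4 and 5, 2 ppm replicates 1 and 3, or 50 ppm replicates 1, 3, 4 and 5 (up to 0.154). When each RNA integrity number entered the fit, Crim1 and Dnajb14 had adjusted p = 0.0615 and 0.0573 (limma). That fit held 17 arrays, without 10 ppm replicates 1 and 2, which had no number, so the arrays changed as well.

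**Figure D1:**
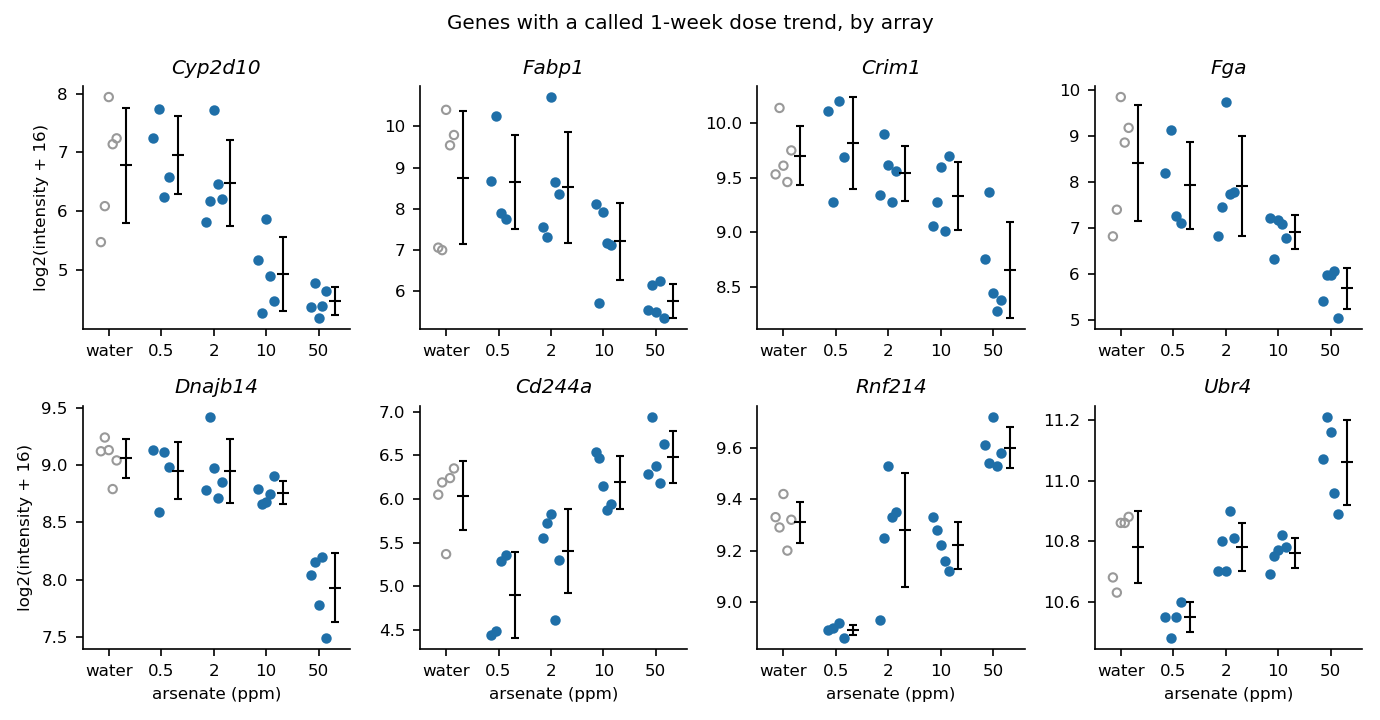
Levels of the 8 genes with a called slope, as log2(intensity + 16) on the vertical axes, by arsenate dose in ppm. Filled points are single mice in the fit, open grey points are the water mice outside it, and bars are means ± SD. The 5 falling genes were lowest at 50 ppm, while for Cd244a, Rnf214 and Ubr4 the 0.5 ppm mice lay below all water mice.

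Cd244a encodes a receptor of natural killer cells and some T cells. It measured 4.45, 4.49, 5.29 and 5.36 at 0.5 ppm, near the floor with a mean of 4.90. It measured 5.56, 5.73, 5.83, 4.62 and 5.30 at 2 ppm, 6.54, 6.47, 6.15, 5.87 and 5.94 at 10 ppm, and 6.29, 6.94, 6.38, 6.18 and 6.63 at 50 ppm. All 10 ppm and 50 ppm mice were above all mice at the lower doses. The slope was 0.55 ± 0.09 (limma, adjusted p = 0.0182), and the second probe set had a slope of -0.03. The call was lost without 0.5 ppm replicate 2 or 50 ppm replicate 5 (adjusted p up to 0.0897). The water mice measured 6.05, 6.19, 5.37, 6.24 and 6.35, all above the 0.5 ppm mice and overlapping the 50 ppm mice.

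Rnf214 encodes a RING finger protein and Ubr4 a ubiquitin ligase that recognises N-terminal degradation signals. Rnf214 measured 8.89, 8.90, 8.92 and 8.86 at 0.5 ppm, 8.93, 9.25, 9.53, 9.33 and 9.35 at 2 ppm, 9.33, 9.28, 9.22, 9.16 and 9.12 at 10 ppm, and 9.61, 9.54, 9.72, 9.53 and 9.58 at 50 ppm. The 2 ppm mean was above the 10 ppm mean, and the 0.5 ppm mice were below all others. Its slope was 0.20 ± 0.04 (limma, adjusted p = 0.0301); of its 3 other probe sets 1 had a slope of 0.22, 1 of 0.00 and 1 of -0.01. Ubr4, with 1 probe set, measured 10.55, 10.48, 10.55 and 10.60 at 0.5 ppm, 10.70, 10.80, 10.70, 10.90 and 10.81 at 2 ppm, 10.69, 10.75, 10.77, 10.82 and 10.78 at 10 ppm, and 11.07, 11.21, 11.16, 10.96 and 10.89 at 50 ppm. Its slope was 0.15 ± 0.03 (limma, adjusted p = 0.0352). The water mice of both genes lay above all 0.5 ppm mice and below all 50 ppm mice, at means of 9.31 ± 0.08 and 10.78 ± 0.12 (SD, n = 5). The Rnf214 call was lost in 9 of the 19 fits that left out 1 array (0.5 ppm replicates 2 to 5, 2 ppm replicate 1, 50 ppm replicates 1, 3, 4 and 5; adjusted p up to 0.154). The Ubr4 call was lost in 11, the same arrays with 2 ppm replicate 3 and 10 ppm replicate 4 (up to 0.182).

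When the water mice were placed at rank 0, the number of called genes was 39 (8 higher, 31 lower), and the rises of Cd244a, Rnf214 and Ubr4 lost their calls with slopes of 0.20, 0.08 and 0.07 (limma, adjusted p = 0.409, 0.317 and 0.193). All 5 falls kept theirs. Without the 0.5 ppm group 0 genes were called by limma (1250 at an unadjusted p under 0.05), and without the 50 ppm group also 0 (610 unadjusted). Without the 10 ppm group 122 genes were called, and without the 2 ppm group 7. With the dose itself in ppm in place of its rank, so that the 50 ppm group carries most of the contrast, 361 genes were called (164 higher, 197 lower), and with log2 of the dose 9. The count was 1 without 0.5 ppm replicate 2 or 50 ppm replicate 5. It was 2 without 50 ppm replicate 1, 3 or 4. It was 4 without 0.5 ppm replicate 4, and 5 without 0.5 ppm replicate 5 or 2 ppm replicate 1. It was 13 (3 higher, 10 lower) without 50 ppm replicate 2, the array that stood apart. With the 3 arrays of an RNA integrity number of 7.2 left out, it was 11.

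By the rule for named genes, 7 further genes of positive and 5 of negative slope with the smallest p were followed although they did not pass the test (adjusted p 0.058 to 0.125, limma). On the positive side, Myl10, a myosin light chain, had a slope of 0.56 from a 0.5 ppm mean near the floor (4.45). Ushbp1, a binding partner of the Usher syndrome protein harmonin, had 0.27. Ap2b1, the beta subunit of the clathrin adaptor AP-2, and Cdc25b, a phosphatase that promotes entry into mitosis, had 0.19 each. The chemokine Ccl27a had 0.17, the inositol trisphosphate kinase Itpkc 0.16 and the chromatin remodelling ATPase Ep400 0.14. On the negative side, Zfp626, a zinc finger protein whose 50 ppm mean of 4.64 was near the floor, had -0.41. Tmed5, a cargo receptor of the early secretory pathway, had -0.34, and Krit1, a protein of endothelial junctions, had -0.32. Nbeal1 had -0.24 and the claudin domain protein Cldnd1 -0.17. Among all 20 named genes, called or not, the arrays of 50 ppm and 0.5 ppm did not overlap for 19, the exception being Crim1. Over all genes, every 50 ppm array lay above every 0.5 ppm array for 3.42% and below for 2.52%. The same values chose the genes, so no more is read from this count. Of the 20 genes 13 had other probe sets, and 19 of these 30 other sets had the sign of the set used, 5 of them at an unadjusted p under 0.05. Among the uncalled genes, the other sets of Ap2b1 (-0.02 and -0.04) and Zfp626 (0.15) had the opposite sign. The sign was shared by 2 of 6 other sets for Ep400 and 2 of 4 for Krit1. All other sets of Tmed5, Nbeal1, Cldnd1 and Itpkc shared it.

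The liver markers were described as a list, chosen like the other lists with earlier results of these data known. 22 of 26 listed genes passed the intensity filter. Of these, 0 rose and 3 fell, the 3 genes named above, 19 had a negative slope, and the median slope was -0.50, against 0.00 and 48.3% negative for all genes. 15 fell at an unadjusted p under 0.05, which 5.97% of all genes did. Serpina1b and Serpina1c, which encode alpha-1 antitrypsins and are close copies, had slopes of -0.97 and -0.93, the P450 gene Cyp3a11 had -0.71, and albumin (Alb) and plasminogen (Plg) had -0.70 each, none of them called (limma, adjusted p 0.14 to 0.21). Rbp4, Tat and Cyp2e1 had slopes of 0.14, 0.12 and 0.05. The members are not independent of each other, and their part in the slopes of other genes is given below as a covariate.

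The mean level of the 22 liver markers per mouse was 8.42 ± 0.89 log2 units in water mice (SD, n = 5). It was 7.95 ± 0.78 at 0.5 ppm (n = 4, range 7.22 to 8.87), 8.21 ± 0.97 at 2 ppm (n = 5, 7.30 to 9.80), 7.32 ± 0.36 at 10 ppm (n = 5, 6.90 to 7.77) and 6.74 ± 0.30 at 50 ppm (n = 5, 6.49 to 7.22). The mice spread widely up to 2 ppm and narrowly at 50 ppm, where the highest mouse just reached the lowest mouse at 0.5 ppm. No marker had a group mean near the floor in water, 0.5 ppm or 2 ppm mice, while 2 of 22 did at 10 ppm and 4 of 22 at 50 ppm. Liver was among the tissues collected from the mice, per the design text. In whole-organ RNA, fewer cells of a type and less RNA per cell cannot be told apart. From which tissue the liver transcripts on these arrays came was not tested. With each array's liver marker mean, which includes Cyp2d10, Fabp1 and Fga, as a covariate, 1 gene was called, Rnf214. The slopes of Crim1 and Dnajb14 were then -0.37 and -0.32, close to those without it, with wider errors (limma, adjusted p = 0.188 and 0.19, against 0.0301 for both without it). Cyp2d10, Fabp1 and Fga then had slopes of -0.54, -0.37 and -0.27 (adjusted p = 0.145, 0.19 and 0.199), against -0.90, -1.02 and -0.79 without it. The liver markers' part in the other results was not tested further.

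Genes of mitosis leaned the same way without a call. 26 of 30 were measured, 0 rose, 0 fell, and 25 had a negative slope, against 48.3% of all genes, with a median of -0.18. 11 fell at an unadjusted p under 0.05, against 5.97% of all genes. Kif20a, a kinesin of cytokinesis, had a slope of -0.33 and Tpx2, a spindle assembly factor, -0.29 (limma, adjusted p = 0.21 and 0.136). Tpx2 measured 7.27, 7.60, 7.37 and 7.28 at 0.5 ppm, 6.61, 6.92, 7.50, 7.69 and 6.94 at 2 ppm, 6.78, 6.71, 7.21, 6.78 and 7.09 at 10 ppm, and 6.73, 6.34, 6.20, 7.09 and 6.15 at 50 ppm. All 50 ppm values of Tpx2 lay below all 0.5 ppm values, and the 2 ppm values overlapped both. Of its 4 probe sets 3 had negative slopes and 1 a positive slope. Among 26 genes of DNA replication 22 had a negative slope, with a median of -0.06, and 0 were called. Rrm2, a subunit of ribonucleotide reductase, had -0.31 and Pcna, the sliding clamp, -0.09 (adjusted p = 0.136 and 0.243).

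Endothelial markers leaned the other way. All 14 were measured, 0 were called, 13 had a positive slope, against 51.7% of all genes, and the median was 0.12. 6 rose at an unadjusted p under 0.05, against 7.1% of all genes. Pecam1, an adhesion molecule between endothelial cells, measured 9.02, 9.30, 9.05 and 9.19 at 0.5 ppm, 8.98, 9.35, 9.40, 9.64 and 9.37 at 2 ppm, 9.42, 9.20, 9.39, 9.23 and 9.26 at 10 ppm, and 9.63, 9.27, 9.86, 9.71 and 9.51 at 50 ppm. Its groups overlapped, and the slope was 0.13 ± 0.04 (adjusted p = 0.214, limma). The VEGF receptor Kdr had a slope of 0.15 (adjusted p = 0.228). The mean of the 14 markers was 9.07 ± 0.15 at 50 ppm (n = 5) and 8.72 ± 0.10 at 0.5 ppm (n = 4), with water mice at 9.01 ± 0.12 (SD, n = 5). Water mice thus lay nearer the 50 ppm than the 0.5 ppm mice.

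**Figure D2:**
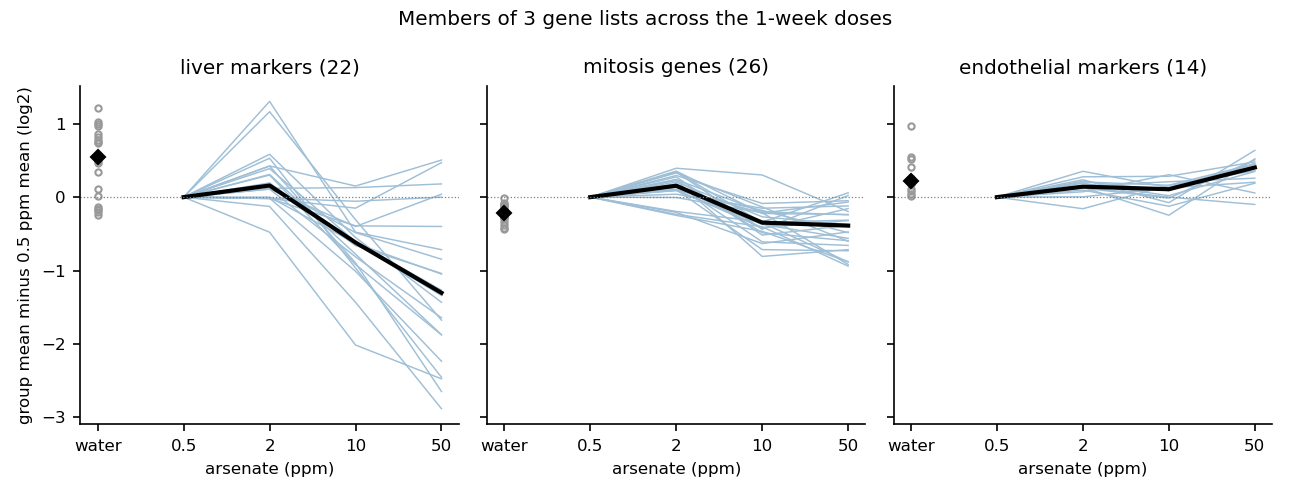
Group means minus the 0.5 ppm mean (log2, vertical axis) by arsenate dose in ppm for the 22 liver markers, 26 mitosis genes and 14 endothelial markers. Thin lines are genes, the thick line is the list median, and grey circles with a black diamond are the water mice and their median. At 50 ppm the medians were -1.30, -0.39 and 0.40.

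Lists of known arsenic and stress responses had no called slope, except 1 in the J-domain list. Over all genes 0.0342% had a called fall, 51.7% a positive slope and 48.3% a negative slope. Of 25 NRF2 targets 17 had a positive slope, with a median of 0.01, and of 17 metal response genes 13 had a negative slope, with a median of -0.07. The oxidative stress genes Hmox1, Nqo1, Srxn1, Txnrd1 and Gclm had slopes of 0.04, 0.06, 0.05, -0.02 and -0.05. The metallothioneins Mt1 and Mt2 had -0.02 and -0.03, the zinc exporter Slc30a1 -0.16 and the arsenic methyltransferase As3mt 0.01, with adjusted p from 0.291 to 0.93 for these 9 genes (limma). Nqo1 measured 11.34, 11.52, 11.34, 11.41 and 11.48 at 50 ppm and 11.29, 11.35, 11.14 and 11.44 at 0.5 ppm, so that the highest and the lowest dose overlapped. Of 27 J-domain co-chaperones 1, Dnajb14, fell, and 19 had a negative slope (median -0.05). Unfolded protein response genes had 18 negative slopes of 28 (median -0.02) and heat shock genes 11 of 21 (median 0.00), with 0 called.

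Cell type lists of the bladder wall had medians close to 0. Over all genes 51.7% of slopes were positive and 48.3% negative. Smooth muscle markers had 14 positive slopes of 16 (median 0.03), superficial urothelium 15 negative of 18 (median -0.01), and basal urothelium 9 negative of 11 (median -0.05). All 8 mesothelial markers had a negative slope (median -0.06), and fibroblast markers 7 positive of 11 (median 0.04). MHC class II genes had 8 positive slopes of 11 (median 0.07), and T cell markers 6 of 11 (median 0.02), with Cd3d of the T cell receptor complex at 0.36 (adjusted p = 0.243, limma). Macrophage markers had 11 negative slopes of 14 (median -0.05). None of these members was called. The remaining lists, from clock and interferon genes to markers of kidney, lung and adipose tissue, also had 0 called members, with medians from -0.09 (8 lung markers) to 0.06 (10 nerve and glia markers).

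**Figure D3:**
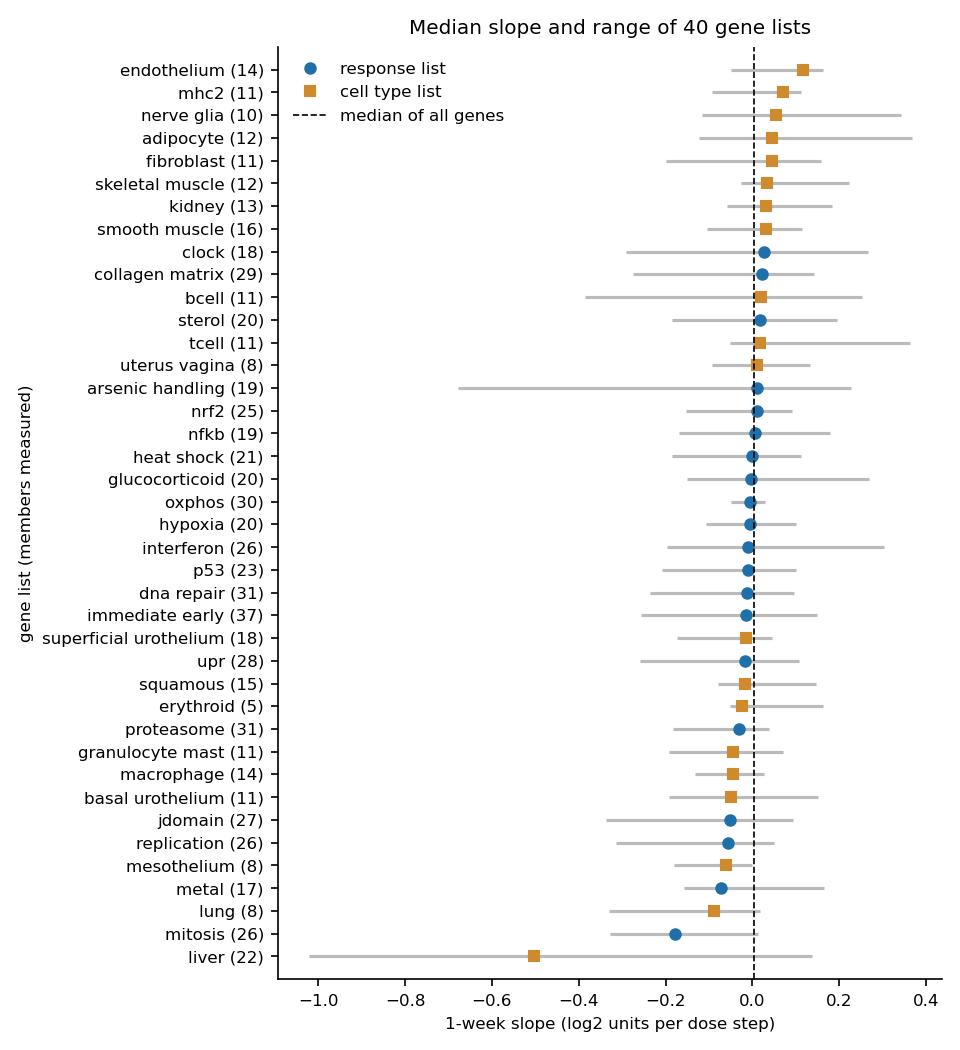
1-week slopes (log2 units per dose step, horizontal axis) of 40 gene lists, with the number of measured members in brackets. Points are list medians, grey lines run from the lowest to the highest member, and the dashed line is the median of all genes. Liver markers (-0.50) and mitosis genes (-0.18) had the lowest medians and endothelial markers (0.12) the highest.

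Both ends of the dose range were also set against each other within a fit of the 4 groups. Between 50 ppm and 0.5 ppm mice, 125 genes differed (0.854%, limma), 67 higher at 50 ppm (0.458%) and 58 lower (0.396%), with 2775 at an unadjusted p under 0.05. The largest called differences beyond the genes named from the trend were positive for Nptx2, a synaptic pentraxin (1.40 ± 0.30), the glutamate receptor Grm4 (1.29 ± 0.29), Tmem200c (1.16 ± 0.22), the glial receptor Gpr37l1 (1.16 ± 0.20) and the homeobox gene Six5 (0.83 ± 0.18), with adjusted p from 0.0113 to 0.037. They were negative for Sdc4, the heparan sulfate proteoglycan syndecan-4 (-1.21 ± 0.21), the splicing-associated protein Pnn (-1.19 ± 0.28), the helicase Dhx36 (-1.08 ± 0.21), the oxysterol hydroxylase Cyp39a1 (-1.05 ± 0.25) and the proteoglycan glypican-3, Gpc3 (-1.0 ± 0.23), with adjusted p from 0.0113 to 0.0476. Over the dose ranks, the sets used for Sdc4, Pnn, Dhx36 and Nptx2 had slopes of -0.36, -0.35, -0.32 and 0.36. Their other sets had -0.13 (Sdc4), -0.06 and -0.08 (Pnn), -0.08 and 0.00 (Dhx36) and 0.03 (Nptx2). Among these, 1 set of Pnn and 1 of Dhx36 were nearly as bright as the sets used (7.53 against 7.62, and 7.45 against 7.78).

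Sdc4 measured 11.01, 12.39, 10.96, 11.30 and 10.94 at 50 ppm and 12.58, 12.53, 12.33 and 12.67 at 0.5 ppm. 4 of the 50 ppm mice lay far below, and replicate 2 fell within the 0.5 ppm range. At 2 ppm and 10 ppm Sdc4 averaged 12.29 and 12.38, so its lower level was seen at 50 ppm and not in a graded order. Tmem200c measured 8.38, 8.18, 8.48, 8.68 and 8.28 at 50 ppm and 7.32, 7.31, 6.78 and 7.53 at 0.5 ppm, without overlap. The water mice of Tmem200c measured 8.74, 8.51, 8.49, 8.46 and 8.08, overlapping the 50 ppm mice, and 1 of its 3 probe sets had a slope of the other sign. Single called members of the lists were the NF-kB subunit Relb (0.64) and the platelet-derived growth factor receptor Pdgfrb of fibroblasts (0.62), both higher at 50 ppm. Lower at 50 ppm were Ccng1, a p53 target (-0.80), the chaperone Hsp90aa1 (-0.70), the mesothelial marker Msln (-0.66) and the tight junction gene Cldn4 of the superficial urothelium (-0.64). Of the 67 genes higher at 50 ppm, 66 had a water mean above the 0.5 ppm mean, and in 44 it was nearer the 50 ppm than the 0.5 ppm mean. Over all genes 48.7% had a water mean above the 0.5 ppm mean. Of the 58 lower genes, 49 had a water mean below the 0.5 ppm mean, and in 17 it was nearer the 50 ppm mean. Strict dose order was held by 6 of the 67 and 14 of the 58. These genes were chosen by a contrast with the same 0.5 ppm mice, so the position of water is a description.

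The count of 125 moved with single arrays. It was 12, 23, 47 and 22 without 0.5 ppm replicates 2, 3, 4 and 5, and 81 without 2 ppm replicate 3 or 5. It was 73 without 10 ppm replicate 2 or 4 and 63 without 10 ppm replicate 5. It was 72, 20, 25 and 1068 without 50 ppm replicates 2, 3, 4 and 5.

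Departure of the 4 group means from a straight line over the ranks was called for 0 genes by limma (0% of genes), with 1523 at an unadjusted p under 0.05. With array weights 21 genes were called, and without 50 ppm replicate 2, 3. The smallest adjusted p was 0.0757, for Ppox, an enzyme of haem synthesis, and for Ccdc71. Ccdc71 measured 10.06, 9.90, 9.79 and 9.84 at 0.5 ppm, 9.87, 9.93, 9.95, 9.79 and 9.97 at 2 ppm, 9.81, 9.65, 9.74, 9.52 and 9.68 at 10 ppm, and 10.28, 10.82, 10.33, 10.54 and 10.25 at 50 ppm. Its 50 ppm mice lay above all mice at the 3 lower doses. Ppox averaged 9.68, 9.55, 9.42 and 10.05 from 0.5 to 50 ppm, again highest at 50 ppm. The next were the microtubule protein Eml2 (adjusted p = 0.112), the interleukin-1 receptor kinase Irak2 and the histone demethylase Kdm6b (0.22 each), and Kcna1, Mpeg1 and Arid1b (0.228 each).

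The 1-week slopes were set against the slopes of the 20 arsenate arrays of 12 weeks by an interaction in limma. At 12 weeks 523 genes had a called slope (3.57%), 302 positive (2.06%) and 221 negative (1.51%), and the slopes differed for 791 genes (5.4%), 461 with a higher slope at 1 week (3.15%) and 330 with a lower one (2.25%). The harvests differ in age as well as in length of exposure, and these cannot be told apart. All 8 genes called at 1 week had a called difference, but they were chosen by the same 1-week slopes, which favours this, so their differences are given as a description. Fabp1 had slopes of -1.02 at 1 week and -0.02 at 12 weeks (difference -1.0 ± 0.21, adjusted p = 0.00655), Cyp2d10 of -0.90 and 0.01 (-0.92 ± 0.16, 0.00208), and Fga of -0.79 and 0.00 (-0.79 ± 0.20, 0.0136). The levels behind these slopes were low in every 12-week group. Fabp1 averaged 5.76 ± 0.41 at 50 ppm after 1 week (SD, n = 5). After 12 weeks it averaged 6.24 ± 0.49 in water mice and 5.90 ± 0.52, 5.90 ± 0.25, 5.97 ± 0.39 and 5.80 ± 0.75 from 0.5 to 50 ppm (SD, n = 5 each). Cyp2d10 was near the floor in all 12-week groups, with means of 4.54 to 4.83 including water. Levels were not tested between the harvests. Dnajb14 had -0.34 and 0.16 (difference -0.50 ± 0.12, 0.0142), Crim1 -0.38 and 0.02 (-0.40 ± 0.11, 0.0324), Cd244a 0.55 and 0.04 (0.51 ± 0.13, 0.0151), Rnf214 0.20 and -0.04 (0.24 ± 0.05, 0.00655), and Ubr4 0.15 and -0.09 (0.24 ± 0.04, 0.00208). None of the 20 named genes had a called slope at 12 weeks, where the smallest adjusted p was 0.0859.

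**Figure D4:**
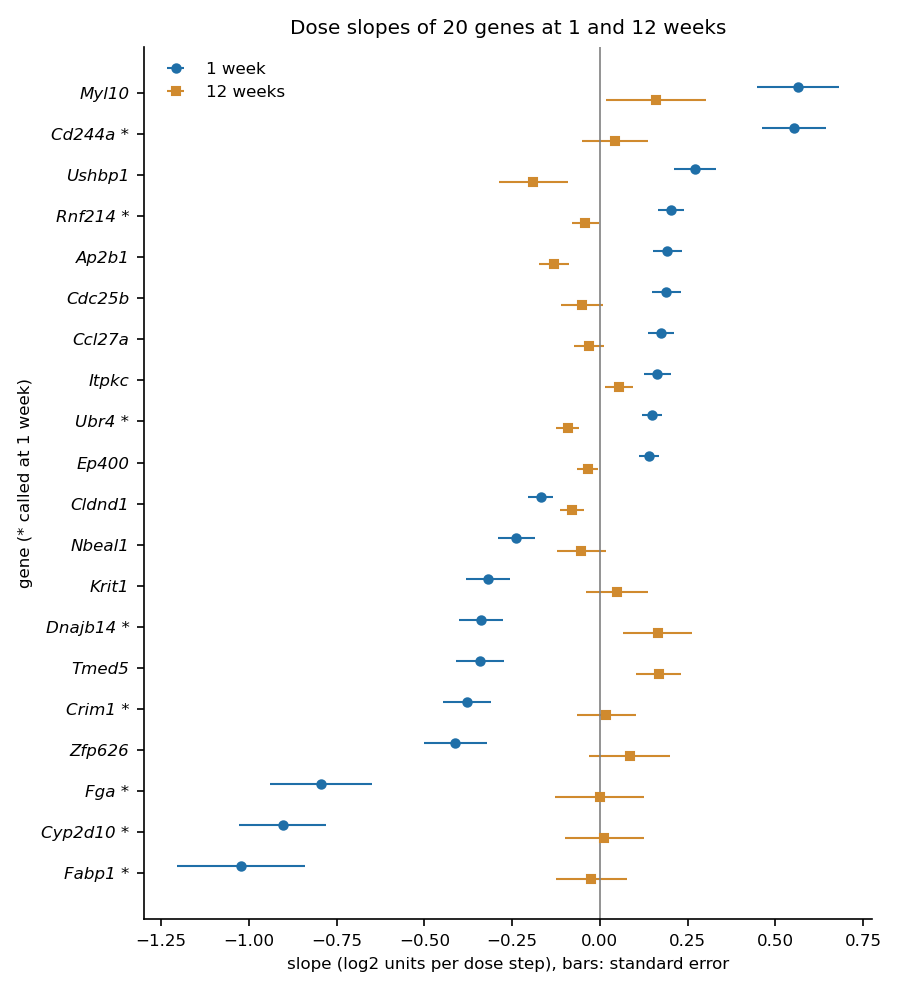
Slopes (log2 units per dose step, horizontal axis, bars are standard errors) of the 20 named genes at 1 week (circles) and at 12 weeks (squares), with an asterisk for genes called at 1 week. The 12-week slopes lay between -0.19 and 0.17, and the 1-week slopes between -1.02 and 0.56.

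The largest called difference with a higher slope at 1 week was that of Egr1, an immediate early transcription factor. Its 1-week slope was 0.11 and its 12-week slope -0.81 (difference 0.92 ± 0.16, limma, adjusted p = 0.00208). At 1 week Egr1 averaged 9.73, 10.33, 10.23 and 10.18 from 0.5 to 50 ppm, with overlapping groups, and at 12 weeks 12.05, 10.89, 9.78 and 9.72. The difference thus came with a fall at 12 weeks and no called slope at 1 week. Nr4a1, another immediate early gene, had slopes of 0.07 and -0.68. The chloride transporter Clcn5 had 0.34 and -0.55, the hair keratin associated gene Krtap3-1 0.38 and -0.35, and the interferon gene Ifna1, whose 0.5 ppm mean of 4.68 was near the floor, 0.29 and -0.38. The other Clcn5 probe sets, all dimmer, had 1-week slopes of 0.03, 0.03 and -0.01. With a lower slope at 1 week, Serpina1b had -0.97 and 0.03 (difference -1.0 ± 0.28, adjusted p = 0.0284), Gnmt, a liver methyltransferase near the floor at 10 and 50 ppm, -0.68 and 0.22, and Ammecr1, near the floor at 50 ppm (4.72), -0.44 and 0.43. Of the 22 liver markers 5 had a called difference, all negative, against 2.25% of all genes, and the list median was -0.50 at 1 week and -0.05 at 12 weeks. Among the genes of arsenic response, the slope of Nqo1 was 0.06 at 1 week and 0.26 at 12 weeks (difference -0.20 ± 0.06, adjusted p = 0.0401), Gclm had -0.05 and 0.09 (-0.15 ± 0.04, 0.0268) and Slc30a1 -0.16 and 0.17 (-0.33 ± 0.08, 0.0102). The number of genes with a called difference was 527 without 0.5 ppm replicate 4, 459 without 50 ppm replicate 3 and 485 without 50 ppm replicate 4 of 1 week. It was 1576, 477 and 438 without 0.5 ppm replicates 1, 2 and 3 and 508 without 50 ppm replicate 5 of 12 weeks. The 12-week count was 1341, 176, 266, 194 and 263 without 0.5 ppm replicates 1 to 5. It was 345, 325 and 173 without replicate 5 of 2, 10 and 50 ppm.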

How the data were processed

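Urinary bladder RNA was hybridised to Affymetrix Mouse430_2 arrays. The values are intensities as the authors deposited them, made with GCOS 1.0 per the submitters' processing notes, with no settings stated. The mean after trimming 2% at each end was 500.003 to 500.004 on every array, so the arrays were scaled before deposit. Intensities (45101 probe sets) were taken to log2(intensity + 16), which understates changes of dim genes, with no further scaling. Probe sets with 1 gene symbol numbered 34945 (18194 genes), while 932 had several, 9160 had none and 64 were controls. Of the 34945, those above the 40th percentile in at least 4 of the 49 arrays were kept. Among the kept sets, the set of highest mean level was then used for each gene, which gave 14641 genes. limma 3.58.1 in R 4.3.3 fitted the slope over dose ranks, group means, the departure from a line and the slope difference, each with Benjamini-Hochberg adjustment over all genes and a threshold of 0.05. Array measures were tested by 2-sided permutation (100000 resamples). The fits were tested on simulated data. Figures used matplotlib with Python.

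The members and the 40 gene lists were chosen with earlier results of these data known. Named genes were the called genes, or with fewer than 10 called in a direction the 10 of smallest p, the 5 largest called differences each way for the ends and for the harvests, the 8 smallest p for departure, called list members or else up to 2 of smallest p, and 9 arsenic response genes. Gene positions and promoters came from RefSeq (GRCm38.p6). The number of arrays limits the precision. Each array is a separate mouse, and the p-values rest on the variation among mice. Alternatives changed the offset, scaling, filter, probe set choice, array weights, dose scale, covariates and arrays.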

Additional observations from a re-analysis of the deposited data

Results flagged for a closer look

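Dixon's test for a single far sample was applied to 103 groups of 4 or 5 arrays, the 20 named genes and the array measures at each dose, and marked 7, where chance marks about 1 in 20. Far below the other mice of their dose lay Myl10 in 10 ppm replicate 1 (4.28 log2 units), Ep400 in 0.5 ppm replicate 4 (9.85), Zfp626 in 10 ppm replicate 4 (4.89) and Nbeal1 in 0.5 ppm replicate 3 (10.2). Far above lay Ccl27a in 2 ppm replicate 5 (8.25) and Krit1 in 10 ppm replicate 5 (8.76). The hybridization control level was low in 2 ppm replicate 1 (11.41). None of these genes had a called slope at 1 week, while all 6 were called between 50 ppm and 0.5 ppm.

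For 16 of the 20 named genes the slope at 1 week differed from the slope at 12 weeks (limma interaction, adjusted p under 0.05 over all genes), against 5.4% of all genes. The 20 genes were picked by their 1-week slopes, which favours such a difference, so the values are a description. The difference, 1 week minus 12 weeks, was 0.51 for Cd244a, 0.46 for Ushbp1, 0.32 for Ap2b1, 0.24 for Rnf214, Ubr4 and Cdc25b, 0.2 for Ccl27a and 0.17 for Ep400. It was -1.0 for Fabp1, -0.92 for Cyp2d10, -0.79 for Fga, -0.51 for Tmed5, -0.5 for Dnajb14 and Zfp626, -0.4 for Crim1 and -0.37 for Krit1. Age and length of exposure differ together between the harvests.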

How the results depend on the processing

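Counts are of called genes, against 8 for the trend, 125 for the ends, 0 for departure, 523 at 12 weeks and 791 for the slope difference. The offsets of 1 and 64, quantile normalization, log2 of the dose and the RNA integrity number as covariate left the trend count between 6 and 9, but not each call: Fabp1 and Fga lost theirs with the offset of 64 (adjusted p = 0.0631 for both, limma), and Crim1 and Dnajb14 with the RNA integrity covariate (0.0615 and 0.0573). The fit with that covariate held 17 arrays, as 10 ppm replicates 1 and 2 had no number. The ends count was 77 with no filter and 203 with a filter at the 60th percentile. Of the 8 called genes, Cyp2d10 and Cd244a did not pass the 60th percentile filter, so they were not tested in that run. With all probe sets the trend had 39 and the ends 375. Array weights gave 29 for the trend, 740 for the ends, 21 for departure, 1654 at 12 weeks and 2013 for the difference. A minimum change of 1.5-fold gave 175 at 12 weeks and has no value for departure. The trend count was 361 with linear dose, 39 with water as rank 0, 4 with the poly-A level and 3 with the hybridization level as covariate, 1 with the liver marker mean, and 0, 122 and 0 without the 0.5, 10 and 50 ppm groups. The liver covariate moves with dose, and fewer arrays or groups leave less to fit; otherwise the cause was not tested. Chosen after seeing the data, leaving out the arrays with a low RNA integrity number gave 106 for the ends and 1162 for the difference.

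Leaving out 1 array at a time, the counts ran from 1 to 13 (trend), 12 to 1068 (ends), 0 to 3 (departure), 173 to 1341 (12 weeks) and 438 to 1576 (difference). With all probe sets, each gene was read from its set of smallest p, so that run could not test the sign across sets. Among the other sets of the 20 named trend genes, 19 of 30 had the sign of the set used. Read in this way, the 1-week slopes of the 20 genes kept their sign under every alternative run that held them. Uncalled slopes of other genes did not all do so (Txnrd1 changed sign under 4 alternatives, Hmox1 under 3, Egr1 and Eml2 under 2), nor did 12-week slopes near 0 of genes such as Fga. Some larger uncalled 1-week slopes changed sign under 1 alternative. These included Gnmt (-0.68, up to 0.02), Clcn5 (0.34, down to -0.0095), Cldn4 (-0.17, up to 0.07) and Hsp90aa1 (-0.18, up to 0.07). With the replicate number as a block, 3 genes were called in the trend, Cyp2d10, Fabp1 and Fga, all lower. Over all genes together, the numbers showed no pairing of the mice. Same-numbered arrays of different doses correlated between -0.27 and 0.18 (median -0.02, 27 pairs). Of 19 arrays 2 correlated best with their own number. The liver marker mean, however, was highest in replicate 3 in water (9.27), 0.5 ppm (8.87), 2 ppm (9.80) and 10 ppm mice (7.77). At 50 ppm replicate 2 was highest (7.22) and replicate 3 next (6.83). Whether mice of the same number share more than the number was not tested. Signals near the floor limit the size of the negative slopes of Cyp2d10, Zfp626, Gnmt and Ammecr1.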
